A study of Homo sapiens with 12 samples.

Results

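The vacuolar H+-ATPase (V-ATPase) and the vesicle chloride exchangers were described in HK-2, an immortalized cell line of human proximal tubular epithelium, after exposure to nephrotoxic drugs. The members were all protein-coding genes whose symbol begins with ATP6V0, ATP6V1 or ATP6AP, together with CLCN3, CLCN4, CLCN5, CLCN6, CLCN7 and OSTM1. This rule gave 33 of 58735 genes in the count table, of which 19951 were protein coding. By role, 13 members encode subunits of the V1 sector and 9 subunits of the V0 sector, 3 are accessory genes, 6 belong to the exchangers, and 2 match by name only (ATP6V1FNB, a gene beside ATP6V1F, and the readthrough gene ATP6V1G2-DDX39B). Poly(A) RNA was sequenced from 12 samples, 3 in each of 4 groups. The control group received water. The other groups received iohexol, an iodinated contrast medium, at 75 mg I/mL, the platinum drug cisplatin at 5 μM, or the glycopeptide antibiotic vancomycin at 4 mM, each for 48 h. All groups were HK-2 cells in the same medium with serum and antibiotics, so that they represent 1 immortalized line in culture and not a tubule.

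The V-ATPase is a rotary proton pump of endosomes, lysosomes, secretory vesicles and some plasma membranes. Its cytosolic V1 sector hydrolyses ATP and turns a central rotor, and its membrane V0 sector carries protons through a ring of c subunits beside subunit a. The exchangers ClC-3 to ClC-7 move chloride into the same vesicles against protons, which balances the charge that the pump brings in, and OSTM1 is the beta subunit of ClC-7. In the proximal tubule this machinery acidifies the endosomes that take up filtered protein, and loss of ClC-5 causes Dent disease. Many V-ATPase genes carry copies of the motif bound by TFEB and its relatives, the transcription factors of the CLEAR network of lysosomal genes.

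RefSeq promoter windows of 300 bases (GRCh38.p14, 250 bases before to 50 bases after a start site) were given for 24 of the 33 members, as 34 windows. ATP6AP1L, ATP6V0D2, ATP6V0E1, ATP6V1A, ATP6V1B2, ATP6V1C1, ATP6V1E2, ATP6V1FNB and ATP6V1H were not among them. The letters CACGTG, the core of the TFEB motif, were in a window of 8 of the 24 members (33.3%) and of 1642 of 14896 coding genes (11%), or in 7.26% of all 35116 windows. TCACGTGA was in a window of 4 members (16.7%) and of 1.7% of coding genes, or in 0.98% of all windows. TCACGTGA with a further G before and C after it was in a window of 2 members (8.33%) and of 0.665% of coding genes, or in 0.353% of all windows. These motifs read the same on both strands, and each longer one contains the shorter. A match describes letters in the window and is not evidence of binding. The whole 250 bases before the start are shown for ATP6V0B and CLCN4, both up-regulated with every drug, for ATP6V1G1, strongly up-regulated with vancomycin, and for ATP6V0A4, which had the largest change with iohexol and whose 2 windows held none of the 3 motifs. For the other members with a match, only the stretch around it is shown. Capitals mark CACGTG, and each sequence runs 5′ to 3′ on the gene's strand. The stretches lie at chr1:43974710-43974959 (plus strand) for ATP6V0B, chr9:114587519-114587768 (plus strand) for ATP6V1G1, chrX:10156725-10156974 (plus strand) for CLCN4, chr7:138798197-138798446 (minus strand) and chr7:138773936-138774185 (minus strand) for ATP6V0A4, chr16:67481191-67481236 (minus strand) for ATP6V0D1, chr7:149872876-149872921 (plus strand) for ATP6V0E2, chrX:50067518-50067563 (plus strand) for CLCN5, chr1:11806151-11806215 (plus strand) for CLCN6 and chr16:1475030-1475095 (minus strand) for CLCN7.
ATP6V0B: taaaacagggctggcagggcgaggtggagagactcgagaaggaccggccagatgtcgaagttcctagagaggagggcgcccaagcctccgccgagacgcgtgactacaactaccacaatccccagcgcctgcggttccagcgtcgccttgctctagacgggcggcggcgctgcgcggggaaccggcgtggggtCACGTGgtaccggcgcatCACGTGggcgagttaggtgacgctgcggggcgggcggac
ATP6V1G1: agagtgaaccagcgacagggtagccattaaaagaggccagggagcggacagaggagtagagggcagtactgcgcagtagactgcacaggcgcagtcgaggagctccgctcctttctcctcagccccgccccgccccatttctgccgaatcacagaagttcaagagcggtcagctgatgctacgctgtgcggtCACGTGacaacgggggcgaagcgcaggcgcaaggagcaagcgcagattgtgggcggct
CLCN4: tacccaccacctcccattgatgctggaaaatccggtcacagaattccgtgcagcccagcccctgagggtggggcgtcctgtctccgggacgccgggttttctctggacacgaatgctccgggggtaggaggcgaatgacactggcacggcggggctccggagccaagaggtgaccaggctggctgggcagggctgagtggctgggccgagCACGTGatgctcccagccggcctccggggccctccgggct
ATP6V0A4, first window: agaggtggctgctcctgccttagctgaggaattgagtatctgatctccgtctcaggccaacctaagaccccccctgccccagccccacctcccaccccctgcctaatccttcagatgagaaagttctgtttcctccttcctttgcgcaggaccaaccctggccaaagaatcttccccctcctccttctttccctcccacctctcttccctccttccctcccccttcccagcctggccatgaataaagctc
ATP6V0A4, second window: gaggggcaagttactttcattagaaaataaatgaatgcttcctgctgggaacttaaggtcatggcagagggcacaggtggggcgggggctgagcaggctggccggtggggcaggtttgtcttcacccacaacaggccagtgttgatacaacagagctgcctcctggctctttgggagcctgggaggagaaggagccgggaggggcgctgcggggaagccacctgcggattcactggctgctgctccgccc
ATP6V0D1: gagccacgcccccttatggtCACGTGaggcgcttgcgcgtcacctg
ATP6V0E2: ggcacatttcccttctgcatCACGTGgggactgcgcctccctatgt
CLCN5: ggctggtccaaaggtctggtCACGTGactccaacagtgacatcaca
CLCN6: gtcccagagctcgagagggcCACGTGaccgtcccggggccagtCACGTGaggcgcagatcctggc
CLCN7: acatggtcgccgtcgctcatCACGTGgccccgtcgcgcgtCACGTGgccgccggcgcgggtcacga
ATP6V0B, CLCN6 and CLCN7 each carried the 6 letters at 2 places. The first base of a match lay between 72 bases before and 4 bases after the start site.

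The libraries held 14057282 to 18177109 counts assigned to genes, so that 3 counts corresponded to 0.165 to 0.213 CPM when scaled by library size alone. Apart from this floor, CPM values are counts scaled to library size with TMM factors. Replicates differed beyond counting noise: their chi-square divided by its degrees of freedom was 2.34 to 17.5 in 12 pairs. The sources used here do not say that replicates were separate cultures, so that p-values measure the spread between these samples, which may be technical. Of 7 epithelial markers, 6 were detected in every sample, whereas CDH1 had 0 to 8 counts. Of 13 proximal tubule markers, 5 were detected in every sample, among them GGT1 and PDZK1, whereas SLC22A6 was at 0 in all samples and LRP2 had at most 3 counts. The summed proximal tubule markers lay at 228 to 281 CPM in control samples, 195 to 260 in iohexol samples, 257 to 274 in cisplatin samples and 405 to 433 in vancomycin samples. The members of that list did not move together: with vancomycin GGT1 rose from 189 ± 28.2 to 363 ± 15.7 CPM, and PDZK1 fell from 68.3 ± 2.85 to 47.0 ± 2.95. The 4 fibroblast markers summed to 37.6 to 47.4 CPM in control, 28.4 to 31.8 in iohexol, 50.2 to 54.3 in cisplatin and 69.6 to 78.3 in vancomycin samples. COL1A1, the highest of them, went from 30.6 CPM to 23.6 with iohexol, 48.7 with cisplatin and 41.8 with vancomycin. DCN went from 12.3 CPM to 6.22 with iohexol, 2.70 with cisplatin and 30.5 with vancomycin. PDGFRB went from 0.606 CPM to 0.566 with iohexol, 1.35 with cisplatin and 1.36 with vancomycin, and COL3A1 had at most 3 counts. Of 4 endothelial markers, summed at 1.44 to 1.65, 3.83 to 4.22, 1.94 to 1.97 and 0 to 0.751 CPM in the same order, PECAM1 went from 1.32 CPM to 3.80 with iohexol and 0.0831 with vancomycin, while CDH5 and KDR had at most 3 counts and VWF at most 8. The 4 leukocyte and macrophage markers summed to 13.5 to 15.8, 8.09 to 12.9, 8.78 to 9.18 and 12.7 to 17.7 CPM. CSF1R, which made up most of this sum, went from 13.5 CPM to 8.91 with iohexol, 7.64 with cisplatin and 11.9 with vancomycin. CD14 went from 0.790 CPM to 1.71 with iohexol, 1.26 with cisplatin and 2.83 with vancomycin, and its cisplatin samples overlapped the control samples. PTPRC had at most 5 counts and CD68 at most 2. The part of these markers in the members' changes was not tested. In bulk RNA, fewer cells of a type and less RNA per cell cannot be told apart.

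Most of the pump was expressed in HK-2 cells, and for most subunits with isoforms 1 gene carried nearly all of the signal. Levels of different genes are given as CPM per kb of gene model (the union of all annotated exons, which understates genes with many seldom used exons), as mean ± SD of 3 samples. In the V1 sector of control cells, ATP6V1G1 (a peripheral stalk subunit) stood at 66.8 ± 4.40 CPM per kb, ATP6V1F (a rotor subunit) at 55.3 ± 6.58 and ATP6V1E1 (the other stalk subunit) at 40.8 ± 3.48. The catalytic subunit gene ATP6V1A stood at 16.4 ± 0.718 and its partner ATP6V1B2 at 13.4 ± 0.586 CPM per kb. In the V0 sector ATP6V0E1, a small membrane subunit, led at 55.3 ± 2.77 CPM per kb, and ATP6V0B, the c″ subunit of the ring, followed at 19.4 ± 1.91. Subunit a was spread over several isoforms: ATP6V0A1 stood at 4.31 ± 0.157, ATP6V0A2 at 2.28 ± 0.153 and ATP6V0A4 at 0.816 ± 0.0413 CPM per kb. TCIRG1, which encodes the a3 isoform but lies outside the rule and was looked up after the other values were seen, stood above them at 12.3 CPM per kb. Among the exchangers CLCN3 was highest at 14.9 ± 0.935 CPM per kb, followed by OSTM1 at 9.25 ± 1.23 and CLCN7 at 8.76 ± 1.16, whose spreads overlapped. CLCN6 stood at 3.64 ± 0.559, CLCN5 at 1.52 ± 0.187 and CLCN4 at 1.41 ± 0.140 CPM per kb, the last pair again within their spreads.

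The isoforms known from acid-secreting intercalated cells were low or absent. ATP6V1B1 had 0 to 4 counts per sample and ATP6V1G3 had 0 counts in all 12 samples. For ATP6V1G3 this allows at most 0.165 to 0.213 CPM when scaled by library size alone, counting error only. ATP6V1G2-DDX39B had 1 count in all. These 3 members entered no test. The counts of ATP6V1B1 and ATP6V1G2-DDX39B are uncertain, since 76.5% and 96.1% of their sequence (stretches of 31 bases) is shared with other annotated genes. VAX2 covers 62.4% of the exons of ATP6V1B1 on the same strand. ATP6V1C2 stood at 0.365 ± 0.145 CPM per kb in control cells against 23.6 ± 1.87 for ATP6V1C1, ATP6V0D2 at 0.312 ± 0.0820 against 12.4 ± 0.618 for ATP6V0D1, and ATP6V1G2 (a brain form) at 0.292 ± 0.196. Of 6 intercalated cell markers, FOXI1 and DMRT2 were at 0 in all samples, 3 markers (these included) were under 3 counts in all samples, and the summed list lay at 0.251 to 0.460 CPM in control samples, 0.384 to 1.0 in iohexol samples, 0.177 to 0.493 in cisplatin samples and 0.376 to 0.675 in vancomycin samples. ATP6V0C, the main c subunit, appeared low at 1.33 ± 0.795 CPM per kb, but 80.5% of its sequence (stretches of 31 bases) is shared with other annotated genes, 2 of them readthrough transcripts across its exons, so that its counts of 13 to 107 per sample are uncertain.

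**Figure D1:**
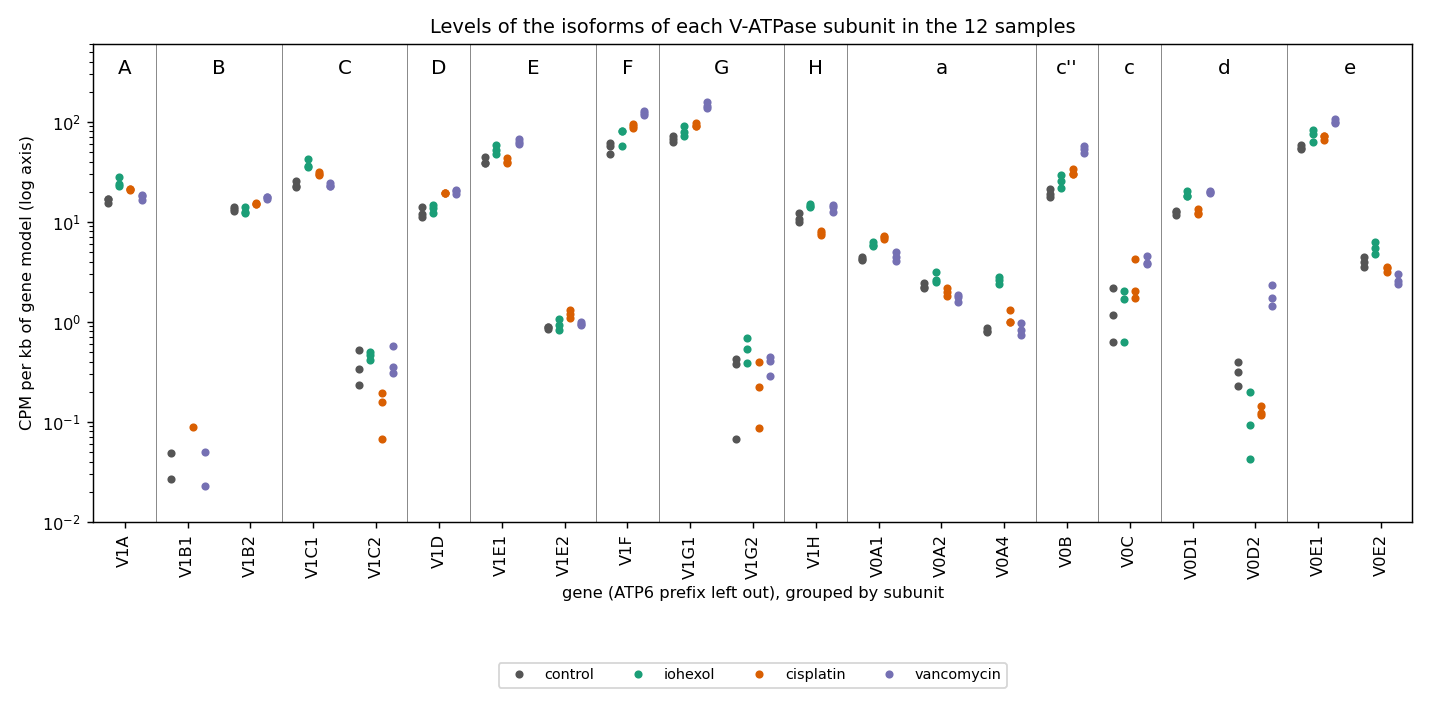
CPM per kb of gene model (log axis) of each V-ATPase subunit gene except ATP6V1G3 (0 counts) in the 12 samples, grouped by subunit letter, with 1 point per sample coloured by group; samples at 0 are not drawn. For subunits B, C, E, G, d and e a single isoform stood far above the others, though the counts of ATP6V1B1 are uncertain. The low isoforms ATP6V0A4 and ATP6V0D2 lie highest with iohexol and vancomycin respectively.

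Against the control group, members moved up more often than down with each drug. A gene was called when its adjusted p was under 0.05 by the quasi-likelihood test of edgeR with Benjamini-Hochberg adjustment over all genes, and a DEG also had a log2 fold change beyond 1 in size. All adjusted p-values here are of this kind. With iohexol 29 members could be tested, with 17 up-regulated and 0 down-regulated, while 11.2% of all genes tested were called higher and 9.77% lower. With cisplatin 14 of 29 were up-regulated and 5 down-regulated, against 29.2% and 30.6% of all genes. With vancomycin 18 of the same 29 were up-regulated and 3 down-regulated, against 29% and 28.8% of all genes. ATP6V0D2 passed the count filter with vancomycin alone, where it was high, and is left out of these counts. The median log2 fold change of the 29 members was 0.43 with iohexol, 0.23 with cisplatin and 0.46 with vancomycin, beside 0.01, 0.01 and -0.01 for all genes. DEGs among the members were 2 higher with iohexol (ATP6V0A4 and CLCN4, beside 4.02% of all genes), 1 lower with cisplatin (ATP6V1C2, 8.72%) and 5 higher with vancomycin (ATP6V1F, ATP6V1G1, ATP6V0B, ATP6V0C and ATP6V1FNB, 10.8%). The 3 comparisons share the same control samples. For iohexol, 0 members also lay below the control group at an unadjusted p under 0.05, and DESeq2 and limma-voom called 0 lower. The iohexol count rested partly on single libraries: it was 10 without control replicate 2, 9 without control replicate 3 and 21 without iohexol replicate 3.

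**Figure D2:**
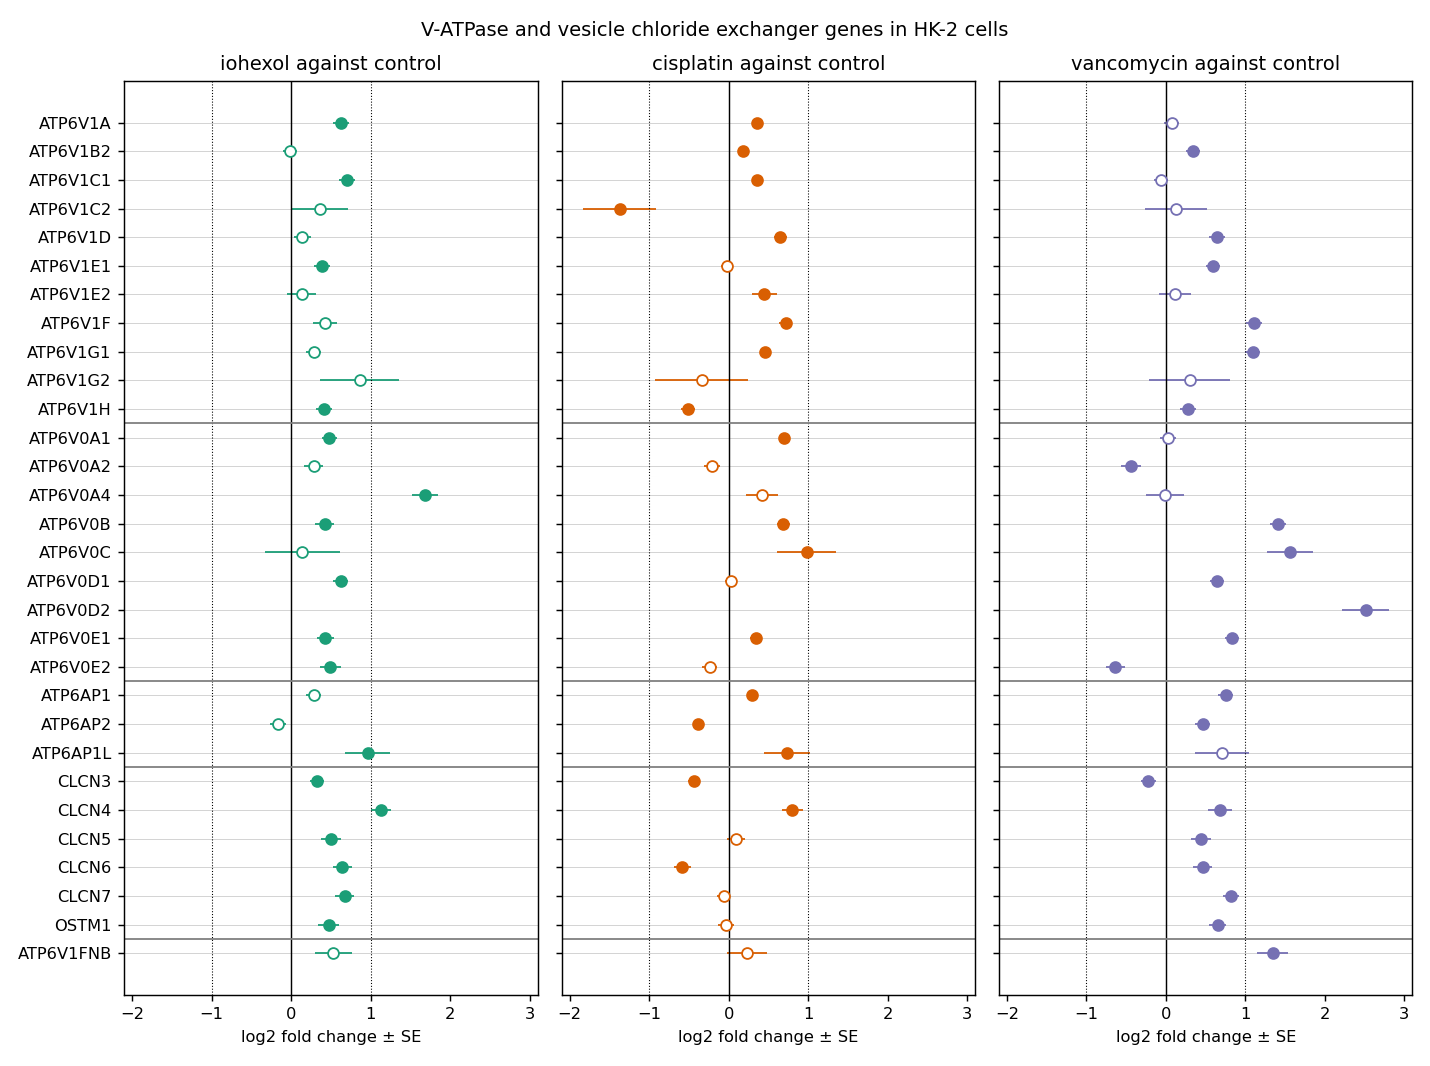
Log2 fold change ± SE against the control group for the members tested, with V1, V0, accessory, exchanger and name-only genes set apart by lines; filled points have an adjusted p under 0.05 and dotted lines mark a log2 fold change of 1 in size. With iohexol all 6 exchangers lie to the right of 0, with cisplatin the filled points lie on both sides, and with vancomycin ATP6V0C and ATP6V0B lie farthest to the right of the members tested with every drug; ATP6V0D2 is drawn for vancomycin only, the one drug with which it passed the count filter.

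In the V1 sector, 4 of 11 genes tested rose with iohexol (36.4%, beside 11.2% of all genes). With cisplatin 7 rose (63.6%, beside 29.2%) and 2 fell (18.2%, beside 30.6%), and with vancomycin 6 rose (54.5%, beside 29%). ATP6V1F, a subunit of the central rotor, had CPM values of 37.9, 48.1 and 44.8 in the control samples, 64.3, 64.3 and 44.7 with iohexol, 68.8, 71.6 and 75.6 with cisplatin, and 91.3, 102 and 97.1 with vancomycin. The vancomycin and cisplatin samples lay above every control sample, whereas the third iohexol sample lay among the controls. Its log2 fold change was 1.11 (SE 0.10, adjusted p = 1.85e-09) with vancomycin, 0.72 (SE 0.08, adjusted p = 1.2e-06) with cisplatin and 0.42 (SE 0.15, adjusted p = 0.061) with iohexol. ATP6V1G1, of the peripheral stalk, gave CPM values of 81.6, 93.1 and 86.7 in the control samples, 117, 102 and 93.5 with iohexol, 118, 117 and 127 with cisplatin, and 180, 207 and 185 with vancomycin. All vancomycin samples exceeded all samples of the other groups. It rose with vancomycin by a log2 fold change of 1.09 (SE 0.09, adjusted p = 3.71e-10) and with cisplatin by 0.46 (SE 0.07, adjusted p = 1.54e-05), while the value for iohexol was 0.28 (SE 0.10, adjusted p = 0.0836). Part of ATP6V1F (23.7% of its exons) overlaps KCP on the opposite strand, and a strand setting for the counting is not given in the sources used here.

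The rotor gene ATP6V1D was measured at CPM values of 59.8, 51.4 and 47.5 in the control samples, 58.5, 51.8 and 62.4 with iohexol, 83, 82.9 and 83 with cisplatin, and 80.5, 87.4 and 87.3 with vancomycin. The cisplatin and vancomycin samples did not overlap the control group, and the iohexol samples did. The log2 fold change was 0.65 (SE 0.08, adjusted p = 2.99e-06) with cisplatin and 0.64 (SE 0.10, adjusted p = 8.37e-06) with vancomycin. Subunit C, which joins the stalks to subunit a and leaves the pump when it comes apart, had another pattern. ATP6V1C1 had CPM values of 150, 130 and 133 in the control samples, 213, 206 and 248 with iohexol, 176, 173 and 183 with cisplatin, and 134, 142 and 132 with vancomycin. The iohexol samples were the highest of all, and the vancomycin samples lay within the control range. ATP6V1C1 rose by a log2 fold change of 0.70 (SE 0.10, adjusted p = 0.00041) with iohexol and 0.36 (SE 0.07, adjusted p = 0.000184) with cisplatin, with -0.06 (SE 0.09, adjusted p = 0.557) for vancomycin. The catalytic ATP6V1A followed the same order, at 0.63 (SE 0.10), 0.36 (SE 0.06) and 0.07 (SE 0.09), and was called with iohexol and cisplatin. Its partner ATP6V1B2 was called higher with vancomycin (0.34, SE 0.09) and with cisplatin (0.18, SE 0.06). The cisplatin call was lost without control replicate 2 or 3 or any 1 of the cisplatin samples (adjusted p = 0.0902, 0.094, 0.0915, 0.064 and 0.0523).

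ATP6V1H, a regulatory subunit on the V1 side, had CPM values of 62.1, 54.4 and 51 in the control samples, 73.1, 71.1 and 76.4 with iohexol, 41, 39.5 and 37.3 with cisplatin, and 63.9, 74.9 and 71.3 with vancomycin. Every cisplatin sample was below, and every iohexol and vancomycin sample above, the control samples. It fell by 0.51 on the log2 scale with cisplatin (SE 0.09, adjusted p = 7.1e-05) and rose by 0.41 with iohexol (SE 0.10, adjusted p = 0.0133) and by 0.28 with vancomycin (SE 0.10, adjusted p = 0.0208). Both increases lost the call without control replicate 2 (adjusted p = 0.0921 in each) or 3 (adjusted p = 0.0878 and 0.128), and the vancomycin call also without vancomycin replicate 2 or 3 (adjusted p = 0.0722 and 0.0572). The scarce isoform ATP6V1C2 gave CPM values of 1.81, 0.815 and 1.18 in the control samples, 1.45, 1.6 and 1.74 with iohexol, 0.667, 0.554 and 0.236 with cisplatin, and 1.06, 1.22 and 1.97 with vancomycin. All cisplatin samples lay below all control samples. It was the only member down-regulated as a DEG, with a log2 fold change of -1.37 (SE 0.46, adjusted p = 0.0158) for cisplatin. The change rests on 4 to 11 counts per cisplatin sample, lost the call without cisplatin replicate 3 (adjusted p = 0.088) or control replicate 1 (adjusted p = 0.0917), and 29.7% of the gene's exons overlap PDIA6 on the opposite strand. Of the remaining V1 genes, ATP6V1E1 rose with iohexol (0.39) and vancomycin (0.59), ATP6V1E2 rose with cisplatin (0.45), and ATP6V1G2 was called with none of the drugs. The iohexol call of ATP6V1E1 was lost without control replicate 2 or 3 (adjusted p = 0.118 and 0.0956), and the call of ATP6V1E2 without control replicate 2 or cisplatin replicate 2 or 3 (adjusted p = 0.0754, 0.0597 and 0.104). The ATP6V1E2 call was also lost in DESeq2 (adjusted p = 0.0568) and in edgeR without the count filter (adjusted p = 0.0725).

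In the V0 sector, ATP6V0D2 left out, 6 of 8 genes tested rose with iohexol (75%, beside 11.2% of all genes). With cisplatin 4 of 8 rose (50%, beside 29.2%). With vancomycin 4 of 8 rose and 2 fell, beside 29% and 28.8% of all genes, the falls near that share. ATP6V0B, which encodes the c″ subunit of the proton ring, had CPM values of 62.2, 75.6 and 67.7 in the control samples, 103, 91.3 and 76.4 with iohexol, 106, 107 and 120 with cisplatin, and 172, 203 and 189 with vancomycin. The groups did not overlap and rose in that order, with the closest neighbours at 75.6 and 76.4 and at 103 and 106. Its log2 fold change was 0.42 (SE 0.12, adjusted p = 0.0297) with iohexol, 0.69 (SE 0.08, adjusted p = 7.19e-07) with cisplatin and 1.41 (SE 0.10, adjusted p = 9.35e-12) with vancomycin. The iohexol call was lost without any 1 of control replicates 1 and 3 and iohexol replicates 1 and 2 (adjusted p = 0.0903, 0.0968, 0.132 and 0.0873). ATP6V0E1 had CPM values of 94.7, 88.4 and 86.1 in the control samples, 121, 102 and 135 with iohexol, 107, 116 and 118 with cisplatin, and 157, 174 and 163 with vancomycin. All treated samples lay above all control samples. It rose by 0.43 (SE 0.11, adjusted p = 0.0151), 0.34 (SE 0.07, adjusted p = 0.000382) and 0.83 (SE 0.09, adjusted p = 2.1e-08) on the log2 scale with iohexol, cisplatin and vancomycin, and the iohexol call was lost without control replicate 2 or 3 or iohexol replicate 1 (adjusted p = 0.088, 0.0813 and 0.0516).

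ATP6V0C, of the same ring and with uncertain counts, gave CPM values of 0.943, 1.76 and 3.29 in the control samples, 3.04, 2.56 and 0.936 with iohexol, 3.03, 2.59 and 6.32 with cisplatin, and 5.63, 6.89 and 5.85 with vancomycin. The vancomycin samples exceeded all control samples, while the cisplatin samples overlapped them. Its log2 fold change was 1.56 (SE 0.29, adjusted p = 6.89e-05) with vancomycin and 0.98 (SE 0.37, adjusted p = 0.031) with cisplatin, the latter at 0.48 (adjusted p = 0.299) without cisplatin replicate 3 and not called without control replicate 1 or 2 (adjusted p = 0.0775 and 0.0912). Short genes as a class moved with vancomycin: protein-coding genes with a gene model under 2000 bases had a median log2 fold change of 0.48, and those of 8000 bases or more -0.17. The 4 members under 2000 bases (ATP6V0C, ATP6V0E1, ATP6V1F and ATP6V1G1) had a median of 1.1, and the 8 members of 8000 bases or more 0.45. With cisplatin the same classes of all genes stood at 0.20 and -0.30, and the members at 0.59 and -0.13. The part of gene length in these results was not tested.

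Subunit a, which carries the proton path and whose isoforms differ in where the pump goes, changed isoform by isoform. ATP6V0A4, the a4 isoform of kidney intercalated cells, had CPM values of 3.55, 3.32 and 3.22 in the control samples, 9.81, 10.7 and 11.5 with iohexol, 4.06, 4.06 and 5.44 with cisplatin, and 3.38, 3.98 and 3.02 with vancomycin. The iohexol samples stood apart from all others, and the vancomycin samples lay around the control values. Of the 6 intercalated cell markers, FOXI1 and DMRT2 were at 0, and SLC4A1, SLC4A9, SLC26A4 and HEPACAM2 had at most 8 counts in an iohexol sample and 7 in a control sample. Their summed level was 0.384 to 1.0 CPM with iohexol and 0.251 to 0.460 in the control group, and its part in the ATP6V0A4 result was not tested. It was up-regulated with iohexol by a log2 fold change of 1.68 (SE 0.16, adjusted p = 2.49e-05), the largest among the members for that drug, with 0.42 (SE 0.20, adjusted p = 0.0785) for cisplatin and -0.01 (SE 0.24, adjusted p = 0.987) for vancomycin. In the fit of all 12 samples it was lower than with iohexol for cisplatin (-1.24, SE 0.17) and for vancomycin (-1.63, SE 0.18). ATP6V0A1, the a1 isoform, had CPM values of 45.6, 47 and 49 in the control samples, 62.4, 68.9 and 64.2 with iohexol, 77.4, 79.1 and 74.3 with cisplatin, and 49.3, 44.8 and 54.6 with vancomycin. The iohexol and cisplatin samples exceeded all control samples, and the vancomycin samples overlapped the control group. It rose by 0.70 (SE 0.07, adjusted p = 1.63e-07) with cisplatin and 0.48 (SE 0.09, adjusted p = 0.00352) with iohexol on the log2 scale.

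ATP6V0A2, the a2 isoform of Golgi and early endosomes, gave CPM values of 33.7, 30.4 and 29.9 in the control samples, 36.2, 34 and 42.9 with iohexol, 29.6, 24.7 and 27 with cisplatin, and 24.3, 21.5 and 25.3 with vancomycin. All vancomycin samples were below all control samples. It fell by 0.44 on the log2 scale with vancomycin (SE 0.12, adjusted p = 0.00201), and was not called with iohexol or cisplatin. TCIRG1, the a3 gene outside the rule, had 53.9 ± 4.89 CPM in the control group, 46.3 ± 8.56 with iohexol, 56.5 ± 1.31 with cisplatin and 132 ± 15 with vancomycin. Its log2 fold change was 1.25 (SE 0.10, adjusted p = 2.01e-10) with vancomycin, and it was not called with the other two drugs. The a3 gene thus stood at 30.2 CPM per kb in vancomycin-treated cells, where ATP6V0A1 had 4.52, ATP6V0A2 1.73 and ATP6V0A4 0.839 CPM per kb.

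Subunit d couples the rotor to the ring. The common isoform ATP6V0D1 had CPM values of 104, 105 and 96 in the control samples, 167, 150 and 148 with iohexol, 101, 98.8 and 111 with cisplatin, and 165, 164 and 160 with vancomycin. Iohexol and vancomycin samples were above all control samples, and cisplatin samples overlapped them. It rose by 0.62 (SE 0.09, adjusted p = 0.000483) with iohexol and 0.64 (SE 0.09, adjusted p = 1.02e-06) with vancomycin on the log2 scale, against 0.03 (SE 0.07, adjusted p = 0.762) with cisplatin. ATP6V0D2, the d2 isoform of osteoclasts and kidney, had CPM values of 0.943, 0.69 and 1.18 in the control samples, 0.276, 0.128 and 0.601 with iohexol, 0.364, 0.431 and 0.354 with cisplatin, and 4.32, 5.2 and 7.02 with vancomycin. Vancomycin samples held 69 to 114 counts, control samples 11 to 18, iohexol samples 2 to 9 and cisplatin samples 6 or 7. The vancomycin samples lay above all others. The log2 fold change fitted for vancomycin was 2.51 (SE 0.30), given as a description, since the gene entered the fit through the vancomycin samples and passed the count filter with neither other drug. With vancomycin ATP6V0D2 had 1.83 ± 0.458 CPM per kb, against 19.9 ± 0.374 for ATP6V0D1.

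ATP6V0E2, the rarer form of the small e subunit, gave CPM values of 24, 29.8 and 26.8 in the control samples, 42.4, 36.8 and 32.4 with iohexol, 23.5, 21.4 and 23.6 with cisplatin, and 16.1, 17.1 and 20.1 with vancomycin. Iohexol samples lay above, and vancomycin samples below, all control samples. It fell by 0.64 on the log2 scale with vancomycin (SE 0.12, adjusted p = 0.000122), rose by 0.49 with iohexol (SE 0.13, adjusted p = 0.0203) and stood at -0.24 (SE 0.10, adjusted p = 0.0523) with cisplatin. The iohexol call was lost without control replicate 1 or 3 or iohexol replicate 1 or 2 (adjusted p = 0.0677, 0.0675, 0.0935 and 0.0579). An antisense gene covers 12.8% of the exons of ATP6V0E2. ATP6V1FNB, a gene of unknown part in the pump, had CPM values of 3.48, 5.14 and 6.31 in the control samples, 6.63, 8.76 and 5.95 with iohexol, 3.39, 6.9 and 7.33 with cisplatin, and 11.1, 16.5 and 11.7 with vancomycin. It starts 464 bases after the end of ATP6V1F on the same strand. All vancomycin samples exceeded the others, with a log2 fold change of 1.34 (SE 0.20, adjusted p = 2.99e-06).

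The accessory gene ATP6AP2, the (pro)renin receptor, had CPM values of 151, 130 and 124 in the control samples, 115, 110 and 131 with iohexol, 103, 103 and 104 with cisplatin, and 188, 205 and 180 with vancomycin. The cisplatin samples were all below, and the vancomycin samples all above, the control samples. It fell by 0.38 on the log2 scale with cisplatin (SE 0.07, adjusted p = 0.000256; 0.0553 when scaled by library size alone), rose by 0.46 with vancomycin (SE 0.09, adjusted p = 0.000187) and was not called with iohexol (-0.17, SE 0.10). ATP6AP1, the Ac45 assembly factor of the V0 sector, rose from 136 ± 5.92 CPM to 235 ± 15.2 with vancomycin and to 166 ± 2.37 with cisplatin, or by 0.75 (SE 0.09) and 0.29 (SE 0.06) on the log2 scale. The value for iohexol was 163 ± 19.6 CPM and was not called (adjusted p = 0.0764). ATP6AP1L, a scarce relative, was called higher with iohexol (0.96, SE 0.28) and cisplatin (0.73, SE 0.29), at 1.09 to 3.20 CPM over all samples. Its iohexol call was lost without any 1 control sample or iohexol replicate 2 (adjusted p = 0.0507 to 0.0933), and its cisplatin call without control replicate 1 or 2 or cisplatin replicate 2 or 3 (adjusted p = 0.0561 to 0.135). The cisplatin call was also lost in DESeq2 (adjusted p = 0.0749) and in edgeR without the count filter (adjusted p = 0.0712).

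**Figure D3:**
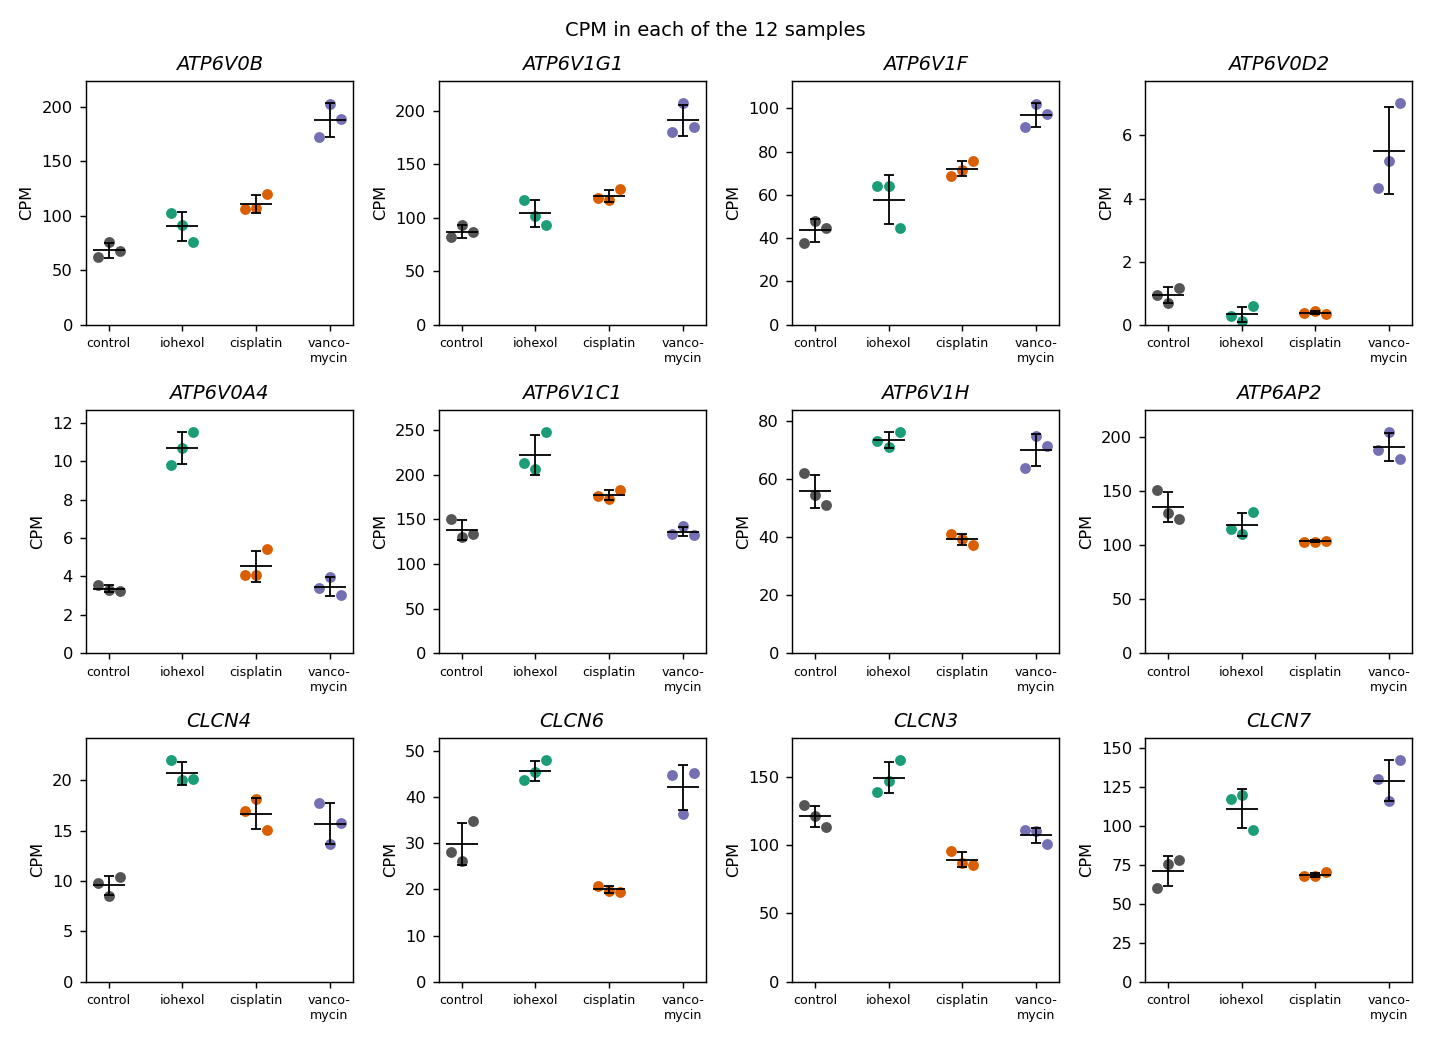
CPM of 12 members in each of the 12 samples (points) with the mean and SD of each group (bars), on axes that start at 0. ATP6V0B, ATP6V1G1, ATP6V1F and ATP6V0D2 stand highest with vancomycin, ATP6V0A4 is separate with iohexol, and ATP6V1H, ATP6AP2, CLCN3 and CLCN6 are lowest with cisplatin.

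All 6 exchanger genes rose with iohexol, beside 11.2% of all genes. With cisplatin only CLCN4 rose (16.7%, beside 29.2%), CLCN3 and CLCN6 fell (33.3%, near the 30.6% of all genes) and 3 were not called. With vancomycin 5 rose (83.3%, beside 29%) while CLCN3 fell (16.7%, beside 28.8%). CLCN4, which encodes the endosomal exchanger ClC-4, had CPM values of 9.79, 8.53 and 10.4 in the control samples, 22, 20 and 20.1 with iohexol, 16.9, 18.1 and 15.1 with cisplatin, and 17.7, 13.7 and 15.8 with vancomycin. Every treated sample exceeded every control sample, and the iohexol samples were the highest. It was up-regulated with iohexol by a log2 fold change of 1.13 (SE 0.13, adjusted p = 0.000107), the only exchanger DEG, with 0.80 (SE 0.13, adjusted p = 2.87e-05) for cisplatin and 0.68 (SE 0.15, adjusted p = 0.000388) for vancomycin. CLCN3, for ClC-3 of endosomes, had CPM values of 129, 121 and 113 in the control samples, 139, 147 and 162 with iohexol, 95.3, 86.5 and 85.4 with cisplatin, and 111, 110 and 101 with vancomycin. Iohexol samples lay above and cisplatin and vancomycin samples below all control samples. The log2 fold change was 0.32 (SE 0.09, adjusted p = 0.0288) with iohexol, -0.44 (SE 0.07, adjusted p = 3.91e-05) with cisplatin and -0.22 (SE 0.09, adjusted p = 0.0424) with vancomycin. The iohexol call was lost without control replicate 2 or 3 or iohexol replicate 2 (adjusted p = 0.15, 0.162 and 0.0891), and the vancomycin call without control replicate 1 or 2 or vancomycin replicate 2 or 3 (adjusted p = 0.105, 0.105, 0.055 and 0.19). Without the count filter both calls were also lost (adjusted p = 0.0559 and 0.065). The vancomycin call was lost as well with at least 10 counts in every sample (adjusted p = 0.0533) and in the fit of all 4 groups (adjusted p = 0.0844).

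CLCN6, for the late endosomal ClC-6, had CPM values of 28.1, 26.2 and 34.9 in the control samples, 43.7, 45.4 and 48 with iohexol, 20.8, 19.6 and 19.5 with cisplatin, and 44.7, 36.4 and 45.2 with vancomycin. All cisplatin samples were below and all iohexol and vancomycin samples above the control samples. It fell by 0.58 with cisplatin (SE 0.11, adjusted p = 0.00024) and rose by 0.64 with iohexol (SE 0.12, adjusted p = 0.00325) and by 0.46 with vancomycin (SE 0.12, adjusted p = 0.00267) on the log2 scale. CLCN5, the exchanger of proximal tubule endosomes, had 17.4 ± 2.14 CPM in the control group, and rose with iohexol (24.3 ± 0.853, log2 fold change 0.50) and vancomycin (24.3 ± 1.65, 0.44). The lysosomal exchanger gene CLCN7 had 71.1 ± 9.42 CPM in the control group, and rose with vancomycin (129 ± 13.2, 0.82) and iohexol (111 ± 12.5, 0.67). It did not pass the test with cisplatin (68.5 ± 1.35 CPM, adjusted p = 0.575). OSTM1 moved alike at 0.47 and 0.65 for iohexol and vancomycin and -0.03 for cisplatin. The iohexol call of CLCN5 was lost without control replicate 2 or iohexol replicate 2 (adjusted p = 0.115 and 0.0537), and its vancomycin call without control replicate 2 (adjusted p = 0.0577). That of OSTM1 with iohexol was lost without control replicate 2 or 3 or iohexol replicate 1 (adjusted p = 0.122, 0.141 and 0.0523). CLCN7 shares 27.3% of its sequence stretches with antisense and other genes.

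Between drugs, all 6 exchangers were lower with cisplatin than with iohexol in the fit of all 12 samples, from CLCN4 (-0.31, SE 0.12, adjusted p = 0.0382) to CLCN6 (-1.19, SE 0.12, adjusted p = 3.98e-08). With library size alone CLCN5 also lost the call (-0.26, adjusted p = 0.0598). For CLCN4 the call was lost in DESeq2 (adjusted p = 0.0573), with RLE in place of TMM factors (adjusted p = 0.0503) and without the count filter (adjusted p = 0.0972). It was also lost when scaled by library size alone (adjusted p = 0.22) and without iohexol replicate 1 or 2 or cisplatin replicate 1 or 3 (adjusted p = 0.121, 0.0542, 0.08 and 0.167). Among the 29 members tested with every drug 5 were higher and 15 lower with cisplatin than with iohexol, beside 26% and 27.9% of all genes (8 higher and 12 lower of 30, ATP6V0D2 included, when scaled by library size alone). Vancomycin against iohexol gave 11 higher and 8 lower members (29% and 27.6% of all genes), with CLCN3 and CLCN4 the lower exchangers, joined by CLCN6 (-0.33, adjusted p = 0.0192) when scaled by library size alone. Vancomycin against cisplatin gave 17 higher and 4 lower members (34.7% and 30% of all genes), with 5 of 6 exchangers higher, CLCN6 most (1.08, SE 0.12, adjusted p = 9.93e-08), but with 3 higher and 1 lower when scaled by library size alone. Under that scaling CLCN3 turned from 0.27 to -0.07 (adjusted p = 0.478), CLCN5 went from 0.38 to 0.05 (adjusted p = 0.712) and CLCN4 from -0.09 to -0.42 (adjusted p = 0.00602). It gave 12 higher and 9 lower of 30 members, ATP6V0D2 included, and ATP6V1B2 also changed sign, from 0.20 to -0.13. ATP6V0B was higher with vancomycin than with either other drug, by 1.06 (SE 0.10) over iohexol and 0.76 (SE 0.10) over cisplatin on the log2 scale. ATP6V1C1 and ATP6V1A were each lower with vancomycin than with the other two drugs. Among the 29 members tested with every drug, 3 were called higher with all (ATP6V0B, ATP6V0E1 and CLCN4), while 1.62% of 15026 genes were. None was called lower with all (3.05% of genes), 5 were called in both directions (ATP6V1H, ATP6V0E2, ATP6AP2, CLCN3 and CLCN6) and 1 with none (ATP6V1G2). For the last pair of counts the share of all genes was not computed, so that they describe single members only.

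Lists of genes associated by textbook function were counted in the same fits, beside 11.2% of all genes called higher and 9.77% lower with iohexol, 29.2% and 30.6% with cisplatin, and 29% and 28.8% with vancomycin. Ragulator, the Rag GTPases and folliculin, the complexes that dock mTORC1 on the lysosome through the V-ATPase, counted 12 genes tested, of which 11 rose (91.7%) and 0 fell with vancomycin, 4 rose (33.3%) with iohexol, and 3 rose (25%) and 4 fell (33.3%) with cisplatin, the last pair near the shares of all genes. Its median log2 fold change was 0.74, 0.28 and -0.10 with vancomycin, iohexol and cisplatin. FNIP2, a folliculin partner, went from 84.9 CPM to 249 with vancomycin (log2 fold change 1.51, SE 0.09) and 170 with iohexol (1.02, SE 0.09), and fell to 67.2 with cisplatin (-0.34, SE 0.07). LAMTOR2, a Ragulator subunit, rose from 15.6 to 40.3 CPM with vancomycin (1.33, SE 0.13), and RRAGD, a Rag GTPase, rose with every drug (0.86, 0.33 and 0.81 for iohexol, cisplatin and vancomycin). The TFEB family had 3 genes tested, with medians of 0.07, -0.39 and 0.59 for iohexol, cisplatin and vancomycin: TFE3 (0.70, SE 0.09) and TFEB (0.59, SE 0.18) rose with vancomycin, and MITF fell with each drug, from 141 ± 7.28 CPM to 31.1 ± 1.83 with vancomycin (-2.23, SE 0.10, adjusted p = 3.98e-15).

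Of 11 genes for assembly and reversible association of the pump, 1 rose (9.09%, near the 11.2% of all genes) with iohexol, 4 rose and 4 fell with cisplatin (36.4% each, near 29.2% and 30.6%), and 5 rose and 5 fell with vancomycin (45.5% each, beside 29% and 28.8%), with medians of -0.03, 0.02 and -0.24. VMA21, an assembly chaperone of the V0 sector, went from 119 ± 7.01 CPM to 150 ± 3.46 with cisplatin (0.33, SE 0.06) and to 63.2 ± 5.61 with vancomycin (-0.95, SE 0.10, adjusted p = 8.33e-09). WDR7, of the complex that reassembles V1 on V0, fell with cisplatin (-1.03, SE 0.14). Among 12 other endolysosomal channels and exchangers, 3 rose (25%, beside 11.2% of all genes) and 1 fell (8.33%, beside 9.77%) with iohexol, 3 rose (25%, near 29.2%) and 5 fell (41.7%, beside 30.6%) with cisplatin, and 3 rose (25%, near 29%) and 6 fell (50%, beside 28.8%) with vancomycin, with medians of 0.21, -0.21 and -0.32. MCOLN1, the lysosomal calcium channel TRPML1, rose from 13.9 CPM to 31.3 with iohexol (1.19, SE 0.14) and 30.1 with cisplatin (1.12, SE 0.12). TPCN1, an endolysosomal cation channel, fell from 350 ± 22.4 to 119 ± 7.47 CPM with cisplatin (-1.55, SE 0.07), and SLC9A7, a Golgi sodium-proton exchanger, fell with every drug. TMEM9, a beta subunit of ClC-3 to ClC-5, fell with cisplatin (-0.48, SE 0.06) and rose with vancomycin (0.35, SE 0.09). Of 5 plasma membrane CLC genes only CLCN2 could be tested, at 0.44 (SE 0.10) with cisplatin and -0.81 (SE 0.13) with vancomycin, both called.

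**Figure D4:**
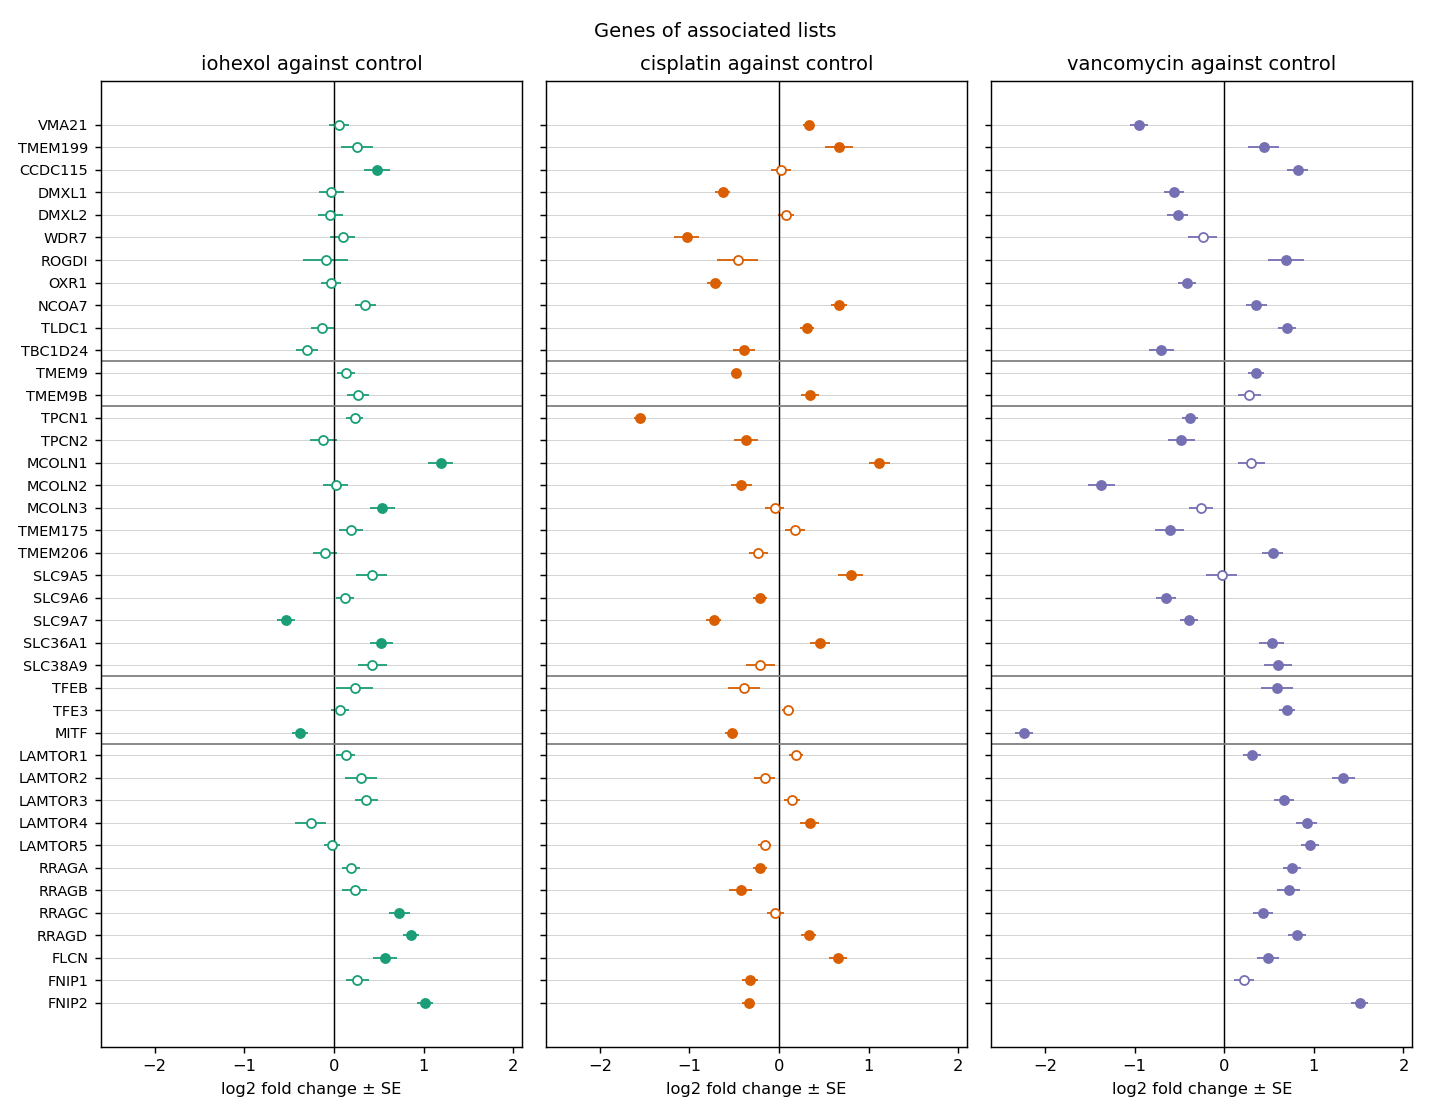
Log2 fold change ± SE against the control group for the associated genes, in the order assembly and association, CLC beta subunits, endolysosomal channels and exchangers, TFEB family, and Ragulator with Rag GTPases and folliculin; filled points have an adjusted p under 0.05. With vancomycin 11 of the 12 genes of the last list are filled on the right, and MITF lies far to the left at -2.23.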

How the data were processed

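RNA of 12 HK-2 samples was analysed from the deposited table of raw read counts per gene. The authors made these counts; their processing notes name CASAVA 1.8, fastp, HISAT2 2.0.5, featureCounts 1.5.0-p3 and DESeq2 1.20.0 without roles. The genome build, annotation and strand setting are not given in the sources used here, and all 58735 gene identifiers were in GENCODE 29. Libraries were poly(A)-selected. Counts were tested with edgeR 4.0.16 in R 4.3.3 (TMM factors, at least 10 counts by filterByExpr, quasi-likelihood test, Benjamini-Hochberg over all genes tested), in 3 fits of 1 drug and the control group, and in 1 fit of all 12 samples for differences between drugs. SE is the log2 fold change divided by the square root of F. CPM used TMM factors of 12 samples, except for the floor of 3 counts, which used library size alone. The tests were checked on simulated counts with 1 dispersion for all genes and few changed genes. That check does not cover the unequal spread or the large shares of genes called in these data. DESeq2 1.42.0, limma 3.58.1, other scalings and filters, a replicate block, and leaving out samples were alternatives. Members and lists were chosen with earlier results of these data known. Values per sample are given for DEGs and for the 4 higher and 4 lower called members with the smallest p per drug. Comparisons against other genes use no set test.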

Additional observations from a re-analysis of the deposited data

How the results depend on the processing

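In the comparisons with the control group, the number of members called higher with iohexol was 17, and 10 under a replicate block. It ranged from 9 to 21 when 1 sample was left out. The number called lower with iohexol was 0, and 1 in the fit of all 4 groups, with 0 to 1 when 1 sample was left out. The 1 was ATP6V0D2, which did not pass the count filter in the main iohexol fit and entered the 4-group fit through its vancomycin samples. Of the 29 members tested with every drug, 0 were called lower with iohexol in either setting. With cisplatin, leaving out 1 sample gave 10 to 13 members higher and 4 to 6 lower, and with vancomycin 17 to 19 higher and 2 to 3 lower, ATP6V0D2 included. Over the main fit and the other settings, cisplatin gave 11 to 18 members higher and 4 to 7 lower, beside 14 and 5 in the main fit. Vancomycin gave 18 to 20 higher and 2 to 3 lower over these settings. ATP6V0D2 is included wherever it was tested. Between drugs, cisplatin against iohexol gave 5 members higher, 3 to 5 without 1 sample and 8 with library size only, and vancomycin against cisplatin gave 4 lower and 9 with library size only. Scaling by library size moved the all-gene median log2 fold change by 0.22 for cisplatin against the control group, by 0.13 for cisplatin against iohexol, by -0.21 for vancomycin against iohexol and by -0.33 for vancomycin against cisplatin. Under that scaling ATP6V1E1 with cisplatin was 0.20 (adjusted p = 0.0212), and against cisplatin vancomycin gave -0.13 for ATP6V1B2, -0.07 for CLCN3 and -0.30 for ATP6V1D, each opposite in sign to the value with TMM factors. The labels do not say whether a replicate number marks a shared culture, and same-numbered samples of different groups had a mean correlation of -0.0209 over 18 pairs, and 2 of 12 samples were most like their own number. With the block, the iohexol calls of ATP6V1E1, ATP6V1H, ATP6V0B, ATP6V0E2, ATP6AP1L, CLCN3 and OSTM1 were lost (adjusted p 0.0503 to 0.111), and ATP6V0A2 and ATP6V0E2 were called lower with cisplatin, and no other call changed. Over all 6 comparisons, limma-voom kept 120 of the 120 calls of single members and DESeq2 117. Scaling by library size alone kept 108, with 10 lost and 2 opposite in sign, and fits without the count filter kept 111. The fits without 1 sample together kept 636 calls and lost 84. These numbers include calls of ATP6V0D2, which passed the filter through its vancomycin samples. The cause of these shifts was not tested. Low counts (4 to 32 per sample for ATP6V1C2) limit what can be said of scarce isoforms.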
